A study of Mus musculus with 6 samples.

Results

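The genes that build cholesterol and fatty acids were followed in neural stem cells (NSCs), the dividing cells that give rise to neurons and glia. A list of 30 genes was matched by symbol to the 53379 genes of the expression values, and all 30 were found and passed the filter on low values. The list holds 18 genes of the sterol branch (7 of the mevalonate and isoprenoid steps and 11 of the squalene and sterol steps), 8 genes of the fatty acid branch and 4 regulators.

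The cells came from the telencephalic cortex of mouse embryos at E14.5 and carried *Tbl1xr1* flox/flox alleles, with loxP sites around exon 5, in both groups. *Tbl1xr1* encodes a subunit of the NCoR/SMRT corepressor complexes. A lentivirus brought either Cre with GFP or GFP alone, and GFP-positive cells were sorted, so the controls also carried the floxed alleles, the virus and the GFP but no recombinase. The 3 control libraries are called replicates 1, 1_1 and 2, and the 3 libraries labelled Cre are replicates 2, 2_2 and 3. The cells were kept in serum-free medium with insulin, transferrin and progesterone and with the growth factors bFGF and EGF, and the labels do not say whether the libraries came from separate cultures, so every p-value measures the spread between these samples, which may be technical.

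Cholesterol synthesis starts from acetyl-CoA, passes through mevalonate and isoprenoids to squalene, and then closes and trims the sterol rings. Fatty acid synthesis starts from the same acetyl-CoA and proceeds by carboxylation, chain assembly, elongation and desaturation. The SREBP transcription factors, which Scap escorts out of the endoplasmic reticulum and Insig proteins retain there when sterols are plentiful, switch on both branches, and neural cells depend on their own synthesis because plasma lipoproteins do not cross into the brain.

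Recovered depth was 7510615 to 14828100 reads on genes per library. *Tbl1xr1* itself was not lower in the libraries labelled Cre. Its normalized counts were 2522, 2189.8 and 2721 in control and 3774, 3463 and 2905 in the libraries labelled Cre, a log2 difference of 0.45 (SE 0.14, adjusted p = 0.06, limma). Counts over the whole gene do not measure exon 5 alone and so do not test the deletion itself. The study reports correct genotypes in the sorted cells, and absence there of *Tbl1xr1* mRNA (RT-qPCR) and of its protein (Western blot). Those tests were not analysed here. Of the 14840 genes tested, 9.96% passed an adjusted p of 0.05, 5.22% with lower and 4.74% with higher values in the libraries labelled Cre. Summed neural stem cell markers ran from 38468 to 42101 normalized counts in control and from 40903 to 45401 in the libraries labelled Cre, with 1 of 10 higher (*Sox9*) and 1 lower (*Nes*). Markers of microglia, endothelium and fibroblasts summed to at most 293, with 6 of 11 (*Aif1*, *Cx3cr1*, *Ptprc*, *Cdh5*, *Col3a1* and *Dcn*) at 3 reads or fewer in every library.

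The promoters of the genes are described first, since their sequence does not depend on the libraries. RefSeq windows from 250 bases before to 50 bases after an annotated start were at hand for 24 of the 30 genes, in 30 windows, but not for *Fdps*, *Fdft1*, *Sqle*, *Scd1*, *Scd2* and *Fads1*. Both strands were searched for CCAAT, the box bound by NF-Y, which works beside SREBP at sterol genes. It stood in the window of 14 of 15 sterol genes (93.3%, all but *Acat2*), of 2 of 5 fatty acid genes (*Acly* and *Fasn*) and of 3 of 4 regulators (all but *Scap*), against 41.1% of all 27025 genes with a window. Of the 32 boxes in the windows of sterol genes, 20 lay within 100 bases before the start.

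The GC box GGGCGG, the site of Sp1, was found on either strand in 14 of 15 sterol genes (all but *Pmvk*), 2 of 5 fatty acid genes (*Acly* and *Fads2*) and 4 of 4 regulators, against 38.2% of all genes. The E-box CACGTG stood in 3 of 15 sterol genes (*Dhcr7*, *Hsd17b7* and *Sc5d*), 0 of 5 fatty acid genes and 2 of 4 regulators (*Insig1* and *Scap*), against 8.09% of all genes. The core of the sterol regulatory element, TCACNCCAC, was matched only in *Hmgcs1* among the 24 genes and in 1.44% of all genes. Only exact matches inside the windows were counted, so a missing match does not show that a gene lacks a site. Overlapping matches were each counted. A match is a description of letters and not a measured binding site, and the shares of the branches were not tested against each other.

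**Figure D1:**
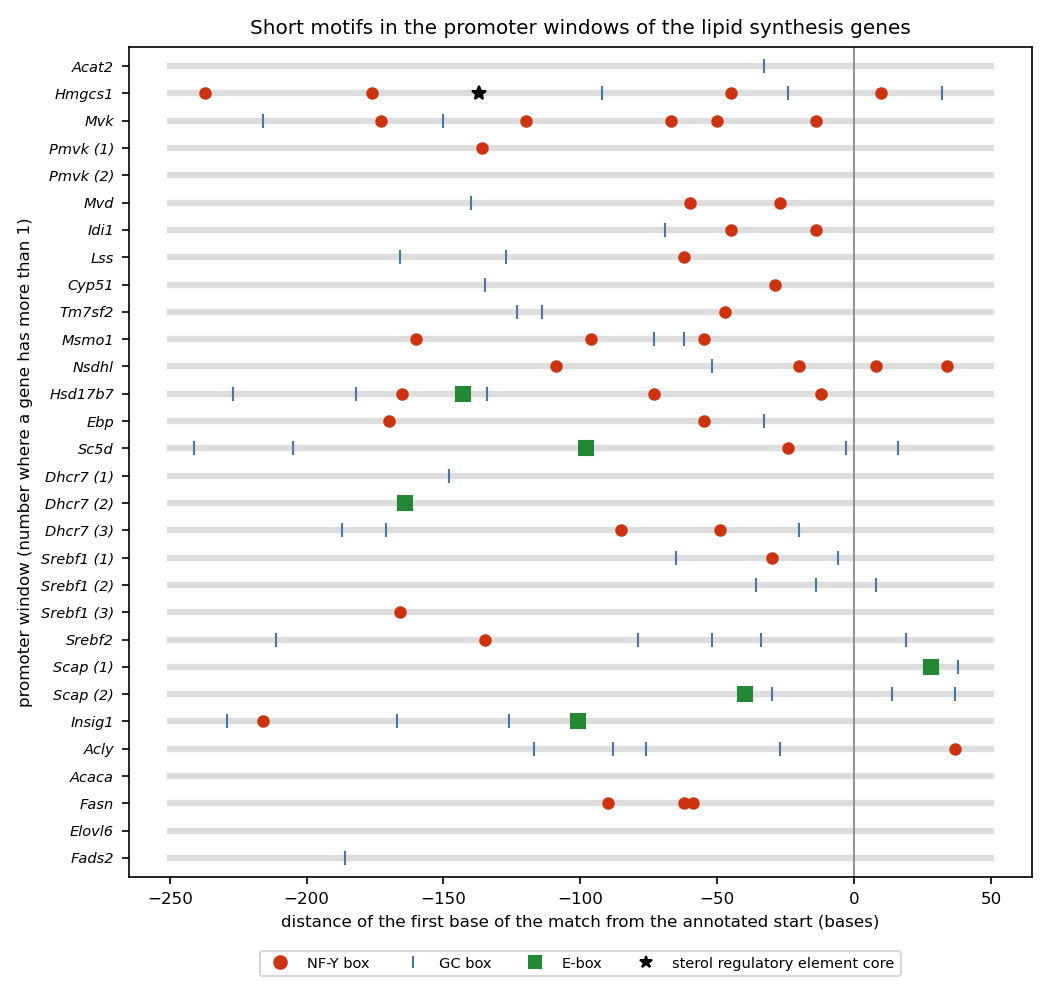
Positions of 4 short motifs in the RefSeq promoter windows of 24 lipid synthesis genes. The x axis gives the distance of the first base of a match from the annotated start in bases, each row is 1 window and grey bars span the window. Red points (NF-Y boxes) occur in 14 of 15 sterol genes and in 2 of 5 fatty acid genes.

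The stretches printed here are the 180 bases just before the transcript start of the window, 5′ to 3′ on the strand of the gene, in the build GRCm38.p6. Capitals mark CCAAT or its reverse complement ATTGG and, in *Hmgcs1*, the core of the sterol regulatory element. They are shown to set a sterol enzyme with several boxes that passed the test of expression (*Msmo1*), an early sterol gene (*Hmgcs1*) and a regulator (*Srebf2*) beside a fatty acid gene with boxes (*Fasn*) and one without (*Fads2*).
Hmgcs1 (chr13:119690171-119690350, plus strand): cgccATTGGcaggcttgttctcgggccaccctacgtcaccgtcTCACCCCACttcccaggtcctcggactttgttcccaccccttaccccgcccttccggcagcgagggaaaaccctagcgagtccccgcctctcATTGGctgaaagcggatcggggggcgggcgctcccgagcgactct
Msmo1 (chr8:64733579-64733758, minus strand): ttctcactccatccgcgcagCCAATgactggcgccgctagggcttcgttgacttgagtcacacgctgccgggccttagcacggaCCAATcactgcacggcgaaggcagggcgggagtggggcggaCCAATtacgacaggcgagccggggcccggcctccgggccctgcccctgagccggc
Srebf2 (chr15:82147089-82147268, plus strand): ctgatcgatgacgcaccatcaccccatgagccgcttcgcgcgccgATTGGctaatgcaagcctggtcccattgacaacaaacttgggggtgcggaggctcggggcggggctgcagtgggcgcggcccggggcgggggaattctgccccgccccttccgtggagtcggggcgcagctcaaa
Fasn (chr11:120824548-120824727, minus strand): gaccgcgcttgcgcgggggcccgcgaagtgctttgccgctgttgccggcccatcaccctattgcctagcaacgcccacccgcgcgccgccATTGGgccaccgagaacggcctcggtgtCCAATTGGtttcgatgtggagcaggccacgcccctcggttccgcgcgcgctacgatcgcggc
Fads2 (chr19:10101504-10101683, minus strand): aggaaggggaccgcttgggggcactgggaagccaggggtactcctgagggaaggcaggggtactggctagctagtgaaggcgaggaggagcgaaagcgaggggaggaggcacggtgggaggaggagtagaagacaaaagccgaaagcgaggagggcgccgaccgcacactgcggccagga
The 3 boxes of *Msmo1* began at positions -160, -96 and -55 from the start, all reading CCAAT on the strand of the gene. The boxes of *Fasn* began at -90, -62 and -59, and the last pair overlap in the letters CCAATTGG. RefSeq's span of *Fasn* (chr11:120805958-120825166) reaches beyond this stretch, so the start used for *Fasn* is not the outermost one, whereas the other 4 stretches lie just outside the spans of their genes. No box was found in the windows of *Fads2*, *Scap*, *Acat2*, *Acaca* and *Elovl6*. Their log2 differences, libraries labelled Cre minus control, were 0.41, -0.46, -0.34, -0.28 and -0.24 (limma). *Pmvk* (0.12) and *Tm7sf2* (0.11) held boxes and had positive values. A link between boxes and expression was not tested.

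Levels differed widely along both pathways. *Hmgcs1* had the highest normalized counts of the list, from 18768 to 20676 in control, but no exon length was matched for it. Per kilobase of exon, on the normalized count scale, the control mean was highest for the desaturase *Scd2* (2595), followed by *Mvd* (1483), *Cyp51* (1476) and *Acat2* (977). It was lowest for *Acaca* (25.3) and *Idi1* (6.84), and *Idi1* rested on 14 to 21 reads per library. The control libraries lay close together, with a median coefficient of variation over the 30 genes of 7.78%, against 15.1% in the libraries labelled Cre. All genes tested had medians of 12.6% and 17.7%. A coefficient of variation over 20% was seen in 0 of 30 genes in control and in 11 of 30 in the libraries labelled Cre.

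The libraries labelled Cre were lower on average for 25 of the 30 genes, by a small amount. The share with a negative log2 difference was 83.3%, against 50.1% of all genes tested, and the median log2 difference was -0.25, against -0.00102 for all genes. In 12 genes (40%) every library labelled Cre lay below every control library, against 15.5% of all genes tested, and in 1 gene (*Scd2*) every one lay above, against 14.7%. An exact permutation test of 3 against 3 cannot go below p = 0.1. With limma across all genes, 2 of 30 genes (6.67%) passed an adjusted p of 0.05, the methyl sterol oxidase *Msmo1* and the squalene synthase *Fdft1*, both lower. That share is below the 9.96% of all genes. At an unadjusted p under 0.05 (limma), 9 of 30 were lower, against 1965 of the 14840 genes tested. In bulk RNA, fewer cells of a type and less RNA per cell cannot be told apart.

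**Figure D2:**
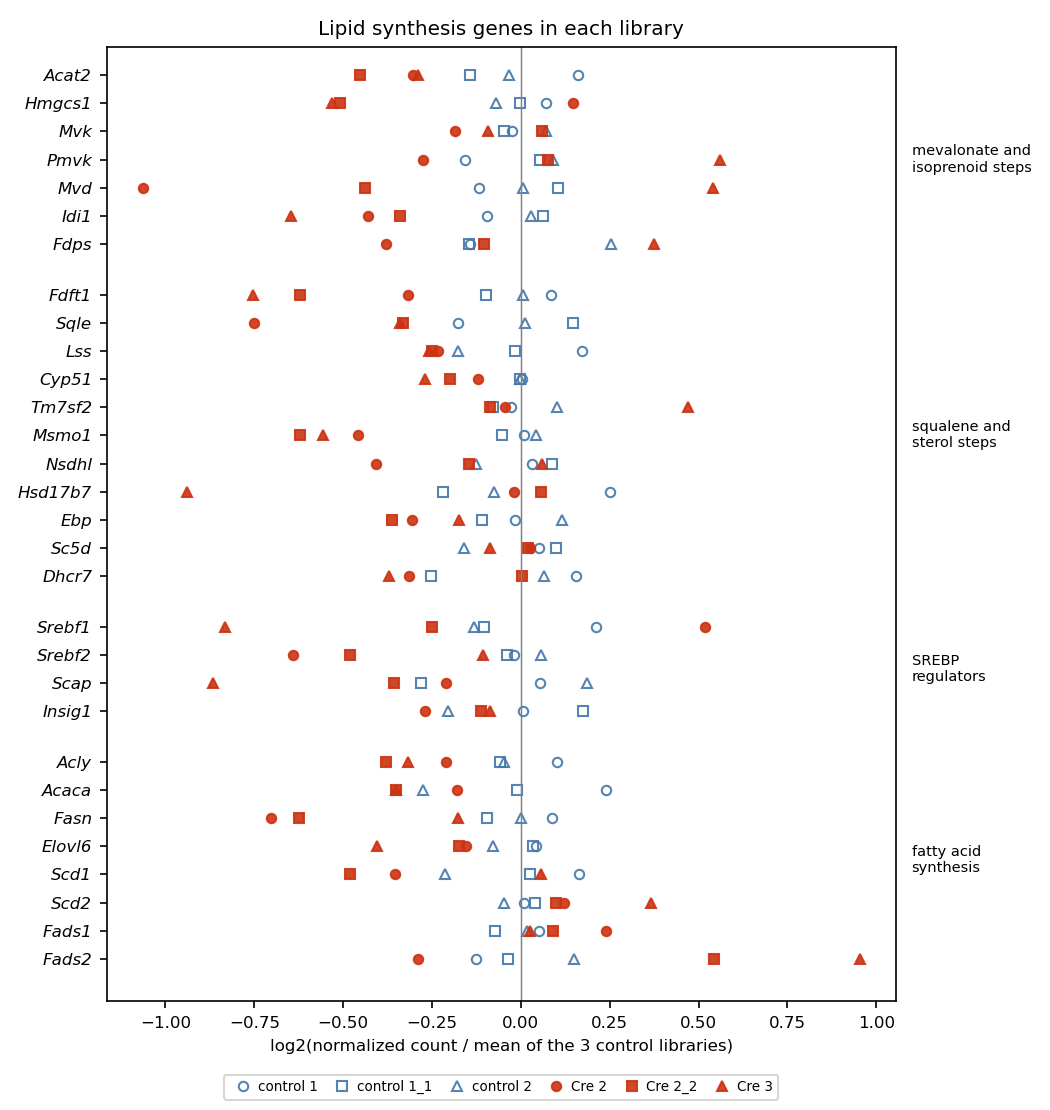
Each of 30 lipid synthesis genes in the 6 libraries, as log2 of the normalized count over the mean of the 3 control libraries (x axis). Open blue symbols are control libraries and filled red symbols are libraries labelled Cre. All red points lie left of all blue points in 12 genes, and *Mvd*, *Srebf1* and *Fads2* have the widest red points.

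The first steps, from acetyl-CoA to farnesyl diphosphate, held 7 genes, of which 0 passed the test with limma, against 9.96% of all genes. At an unadjusted p under 0.05 (limma), 1 of 7 was lower, against 1965 of the 14840 genes tested. *Acat2*, the cytosolic thiolase that joins acetyl-CoA units, had normalized counts of 2778, 2249.8 and 2431 in control and 2015, 1817 and 2032 in the libraries labelled Cre. The groups did not overlap, and the log2 difference was -0.34 (SE 0.12, adjusted p = 0.0993, limma). Its close paralog *Acat3* could share reads with it and read 834 and 675 on average, with a log2 difference of -0.34 (adjusted p = 0.279, limma).

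*Hmgcs1*, the HMG-CoA synthase, had 20676, 19672 and 18768 in control and 21799.9, 13850 and 13634 in the libraries labelled Cre. Replicate 2 of the libraries labelled Cre stood above every control library while the other pair stood below, and the log2 difference of -0.30 (SE 0.18) had an adjusted p of 0.341 (limma). Without that replicate it was -0.52 (adjusted p = 0.016, limma), and without replicate 2_2 or 3 of the libraries labelled Cre it was -0.19 or -0.18 (adjusted p = 0.658 and 0.59). *Mvd*, the diphosphomevalonate decarboxylase, ranged the most of all 30 genes within a group. It had 2405, 2807 and 2625 in control and 1249, 1927 and 3802 in the libraries labelled Cre, a ratio of 3.04 between the highest and the lowest. Its log2 difference of -0.32 (SE 0.30, adjusted p = 0.558, limma) became -0.75 (adjusted p = 0.0201) without replicate 3 of the libraries labelled Cre and 0.05 without their replicate 2.

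The kinases *Mvk* and *Pmvk*, which phosphorylate mevalonate in turn, differed by -0.07 and 0.12 on the log2 scale. The isomerase *Idi1* differed by -0.44 with a wide 95% interval from -1.22 to 0.33. *Fdps*, which makes farnesyl diphosphate, had group means of 366 and 366 normalized counts and a log2 difference of -0.02 (95% interval -0.46 to 0.41). The intervals of all 4 included 0.

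The squalene and sterol steps held 11 genes, 10 with a negative log2 difference (90.9%, against 50.1% of all genes), 6 below without overlap (54.5%, against 15.5%) and both of the genes that passed (18.2%, against 9.96%). *Fdft1*, the squalene synthase that commits farnesyl diphosphate to sterols (ENSMUSG00000021273, chr14:63145150-63181687, GRCm38.p6), had 723, 636 and 684 normalized counts in control and 546, 442 and 404 in the libraries labelled Cre. Its fitted value fell by 32.3%, with a log2 difference of -0.56 (SE 0.14, adjusted p = 0.031, limma). It passed in 10 of 17 alternatives and lost the call without any of control replicates 1, 1_1 and 2 (adjusted p = 0.149, 0.0732 and 0.111) or without replicate 2_2 or 3 of the libraries labelled Cre (0.115 and 0.0636). *Fdft1* also lost it with control replicates 1 and 1_1 averaged (adjusted p = 0.0945) or with both replicate pairs averaged (0.0581, limma). In the GENCODE M1 annotation, 769 of its 2860 exon bases overlap exons of *Ctsb* on the other strand, the library kit does not keep strand, and *Ctsb* moved the other way with a log2 difference of 0.69 (adjusted p = 0.0152, limma).

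*Msmo1*, which takes methyl groups off the sterol ring (ENSMUSG00000031604, chr8:64718123-64733578, GRCm38.p6), had 2827, 2709 and 2895 in control and 2046, 1827 and 1913 in the libraries labelled Cre. The 2 groups stood far apart relative to their own spread, with means of 2811 ± 94.3 and 1928 ± 110.3 (SD, n = 3). The fitted value fell by 31.4%, with a log2 difference of -0.54 (SE 0.11, adjusted p = 0.0106, limma). It passed in 14 of 17 alternatives and missed narrowly without control replicate 1 (adjusted p = 0.0668), without control replicate 2 (0.0573) or without replicate 2_2 of the libraries labelled Cre (0.0564).

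*Sqle*, the squalene epoxidase and a control point of the pathway, had 2139, 2674 and 2439 in control and 1438, 1922 and 1911 in the libraries labelled Cre. The groups did not overlap, and the log2 difference of -0.47 (SE 0.14) had an adjusted p of 0.0637 with limma and 0.0491 with DESeq2. It was -0.53 (adjusted p = 0.0498, limma) without replicate 3 of the libraries labelled Cre and -0.33 (adjusted p = 0.0904) without their replicate 2. *Sqle* passed in 2 of 17 alternatives. It did not pass with edgeR (adjusted p = 0.0662) or without control replicate 1, 1_1 or 2 (0.111, 0.213 and 0.181, limma). *Cyp51*, the lanosterol demethylase, had 6334, 6319 and 6319 in control, the tightest group of any of the 30 genes, and 5818, 5511 and 5247 in the libraries labelled Cre. Its log2 difference of -0.20 (SE 0.11, adjusted p = 0.3, limma) did not pass although the groups were apart. *Lss*, which closes the ring, and *Ebp*, a sterol isomerase, were also without overlap, with log2 differences of -0.24 (adjusted p = 0.264) and -0.28 (adjusted p = 0.172, limma).

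The remaining 5 genes of these steps overlapped between the groups. *Nsdhl*, a sterol dehydrogenase, differed by -0.16 on the log2 scale and *Dhcr7*, a reductase of the last steps to cholesterol, by -0.22. *Hsd17b7*, a sterol ketoreductase, read 373, 393 and 197 in the libraries labelled Cre against 449.7, 325 and 359 in control, so that its log2 difference of -0.29 rested on replicate 3 and was 0.03 without it. *Sc5d*, a sterol desaturase, differed by -0.01 (95% interval -0.28 to 0.26). *Tm7sf2*, a sterol reductase, was the 1 gene of these steps with a positive value, 0.11, and without replicate 3 of the libraries labelled Cre it was -0.06. Its exons share 532 bases with those of another gene, *1110014N23Rik*.

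**Figure D3:**
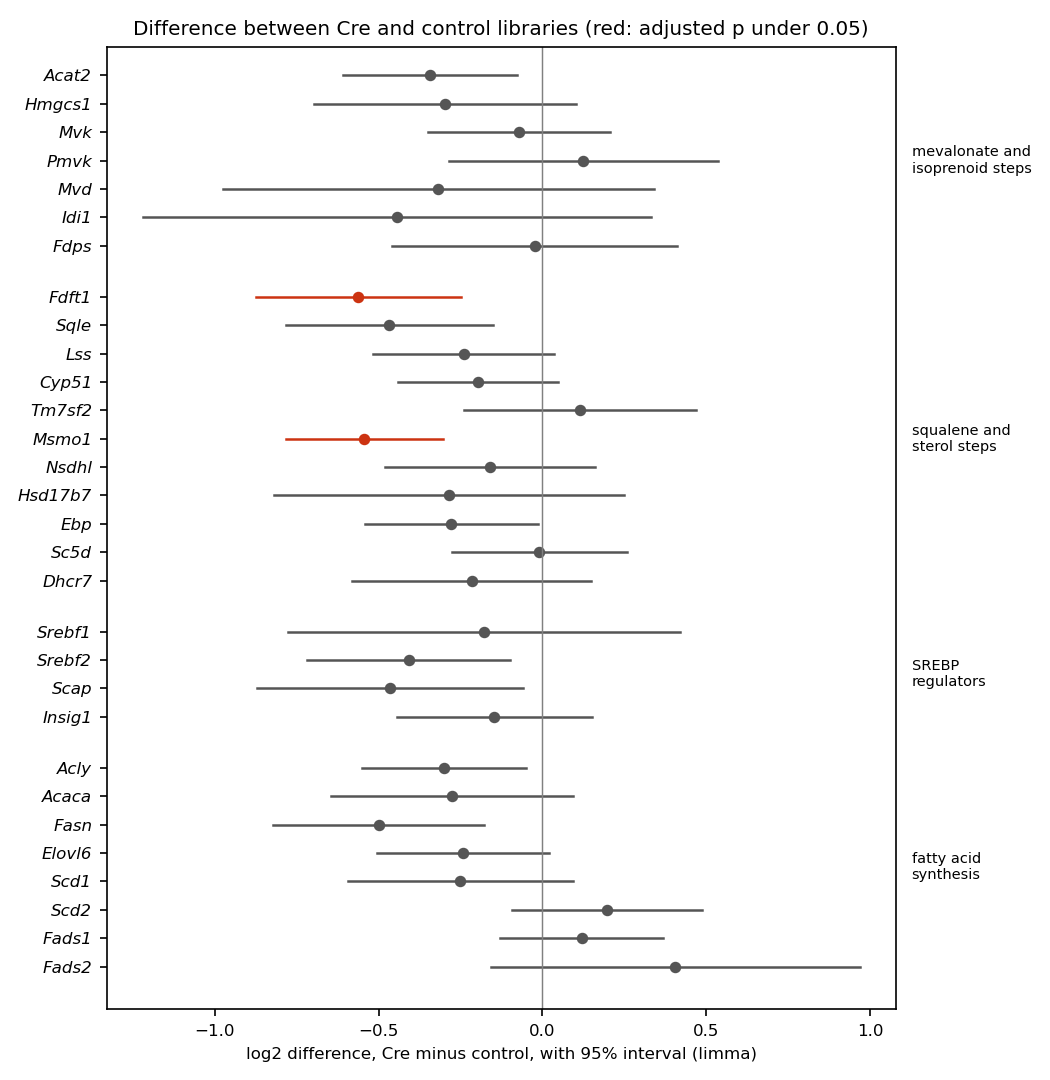
Log2 difference between the libraries labelled Cre and control for 30 lipid synthesis genes (x axis), with 95% intervals from limma and n = 3 per group. Red marks the pair of genes with an adjusted p under 0.05, *Fdft1* at -0.56 and *Msmo1* at -0.54.

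All 4 regulators had negative log2 differences, against 50.1% of all genes, and none passed, against 9.96%. *Srebf2*, the SREBP gene that mainly serves sterol genes, had 2589.7, 2558 and 2733 in control and 1684, 1883 and 2439 in the libraries labelled Cre. The groups did not overlap, and the log2 difference was -0.41 (SE 0.14, adjusted p = 0.0951, limma). Without replicate 3 of the libraries labelled Cre it was -0.56 (adjusted p = 0.0135), and without their replicate 2 it was -0.29 (adjusted p = 0.145, limma).

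*Srebf1*, the SREBP gene that mainly serves fatty acid genes, had 428, 344 and 337 in control and 529.8, 311 and 208 in the libraries labelled Cre. Control values lay between those of the libraries labelled Cre, and the log2 difference of -0.18 (SE 0.27) had an adjusted p of 0.737 and was 0.14 without replicate 3. *Scap* had 689, 547 and 756 in control and 573, 518 and 364 in the libraries labelled Cre, a log2 difference of -0.46 (SE 0.18, adjusted p = 0.142, limma) that was -0.60 (adjusted p = 0.0356) without their replicate 2 and -0.27 (adjusted p = 0.314) without their replicate 3. *Insig1*, itself a classical SREBP target, differed by -0.15 (SE 0.14).

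The fatty acid branch is described by step. The 4 genes that make and elongate the chain (*Acly*, *Acaca*, *Fasn* and *Elovl6*) all had negative log2 differences, against 50.1% of all genes, with a median of -0.29. Of these, 3 lay below control without overlap, against 15.5% of all genes. The 4 desaturases had a median of 0.16, with *Scd2*, *Fads1* and *Fads2* positive and *Scd1* negative. None of the 8 genes passed the test, against 9.96% of all genes, and the difference between these parts of the branch was not tested.

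*Fasn*, the fatty acid synthase, had 4231, 3726 and 3978 in control and 2444, 2581 and 3519 in the libraries labelled Cre. All 3 of the latter lay below control, replicate 3 the least. The log2 difference of -0.50 (SE 0.15) had an adjusted p of 0.0538 with limma, of 0.0389 with DESeq2 and of 0.00652 with limma without replicate 3 of the libraries labelled Cre, where it was -0.66. Without their replicate 2 it was -0.40 (adjusted p = 0.0682, limma). *Fasn* passed in 2 of 17 alternatives. It did not pass with edgeR (adjusted p = 0.064) or without control replicate 1, 1_1 or 2 (0.209, 0.107 and 0.155, limma).

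*Acly*, which supplies cytosolic acetyl-CoA to both branches, had 1725, 1543 and 1556 in control and 1391, 1236 and 1289 in the libraries labelled Cre, a log2 difference of -0.30 (SE 0.11, adjusted p = 0.123, limma). *Acaca*, the acetyl-CoA carboxylase, differed by -0.28 (adjusted p = 0.335) and *Elovl6*, an elongase, by -0.24 (adjusted p = 0.233). Of these 3 genes, *Acly* and *Elovl6* did not overlap between the groups.

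Among the desaturases, *Scd2*, the main stearoyl-CoA desaturase of brain, had 14224, 14540.2 and 13688 in control and 15407, 15162 and 18252 in the libraries labelled Cre. It was the gene of the list that lay above control in every library labelled Cre, but the log2 difference of 0.20 (SE 0.13) had an adjusted p of 0.385 (limma). *Scd1*, its paralog, went the other way at -0.25 (SE 0.16, adjusted p = 0.347), with 1912, 1749 and 2538 in the libraries labelled Cre against 2733, 2487 and 2107 in control.

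*Fads1* and *Fads2*, the front-end desaturases of polyunsaturated fatty acids, lie close together on chromosome 19. *Fads1* differed by 0.12 (SE 0.11). *Fads2* had 278, 295 and 336 in control and 248, 442 and 587 in the libraries labelled Cre, a log2 difference of 0.41 (SE 0.26, adjusted p = 0.355, limma) that became 0.75 (adjusted p = 0.008) without replicate 2 of the libraries labelled Cre and 0.13 (adjusted p = 0.76) without their replicate 3. The former was the lowest of the 6 libraries for *Fads2* and the latter the highest.

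Set side by side, the branches had similar medians and different spreads. The median log2 difference was -0.26 over the 18 sterol genes, with 16 negative (88.9%, against 50.1% of all genes), 8 below without overlap (44.4%, against 15.5%) and 2 called (11.1%, near the 9.96% of all genes). It was -0.25 over the 8 fatty acid genes, with 5 negative (62.5%), 3 below without overlap (37.5%) and 0 called. The counts of the branches were not tested against each other. Averaged over genes as log2 values relative to the control mean, the sterol branch read -0.30, -0.23 and -0.18 in replicates 2, 2_2 and 3 of the libraries labelled Cre, below the control range of -0.03 to 0.02.

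The same average for the fatty acid branch was -0.19, -0.16 and 0.02, which overlapped the control range of -0.06 to 0.08. The desaturases read -0.07, 0.07 and 0.35, while synthesis and elongation genes read -0.31, -0.38 and -0.31. The squalene and sterol steps were even over the libraries labelled Cre (-0.26, -0.23 and -0.29), and the mevalonate and isoprenoid steps were not (-0.35, -0.24 and -0.0023). Sterol minus fatty acid averages were -0.11, -0.08 and -0.20 in the libraries labelled Cre and -0.06, -0.01 and 0.07 in control, and no p is given because the genes were chosen with results known.

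**Figure D4:**
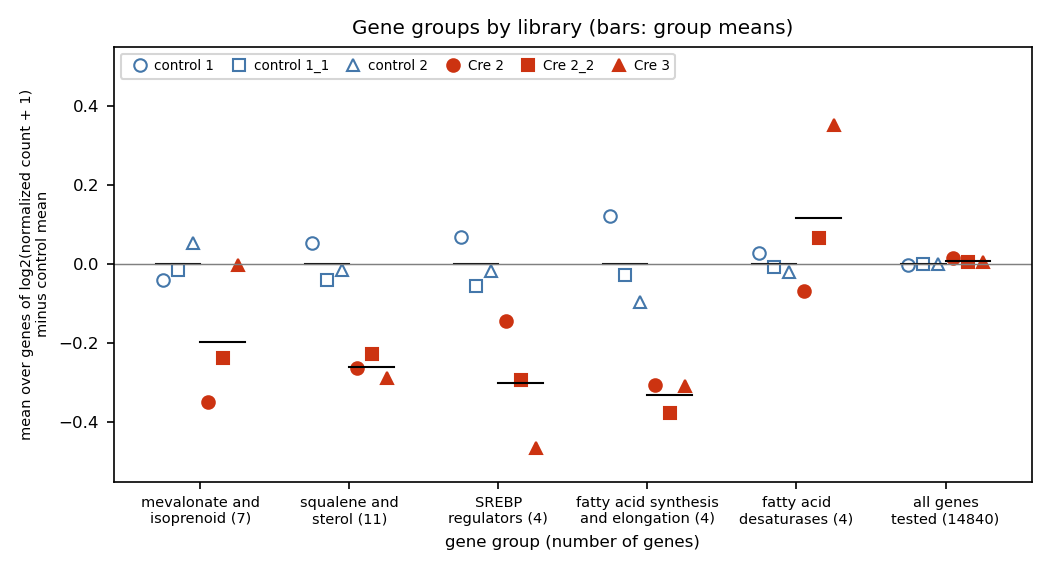
Mean over the genes of each group of log2(normalized count + 1) minus the control mean (y axis), for each of the 6 libraries (open blue, control; filled red, libraries labelled Cre), with black bars for group means. Squalene and sterol genes and the synthesis and elongation genes lie between -0.23 and -0.38 in every library labelled Cre, and the desaturases spread from -0.07 to 0.35.

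The libraries labelled Cre did not order the genes alike. Replicate 2 was the highest and replicate 3 the lowest of the 3 in 9 of 30 genes, among them *Hmgcs1*, *Fdft1* and *Srebf1*, and the reverse held in 8, among them *Mvd*, *Srebf2*, *Fasn* and *Fads2*. All genes tested averaged between 0.0057 and 0.016 in these libraries on the same scale.

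Genes around the list were taken from 7 lists of 105 lipid genes, of which 104 were matched and 91 tested, with 7 lower (7.69%, against 5.22% of all genes) and 11 higher (12.1%, against 4.74%) at an adjusted p of 0.05 (limma). The list of remaining sterol and isoprenoid steps had 11 tested genes and included *Acat1*, the mitochondrial counterpart of the cytosolic thiolase *Acat2*. *Acat1* fell from 1361, 1494 and 1408 normalized counts to 877, 767 and 776, with a log2 difference of -0.82 (adjusted p = 0.00175). *Lbr*, a sterol reductase that is also the receptor of lamin B, fell by 0.51 on the log2 scale (adjusted p = 0.0287), a call lost without any of control replicates 1, 1_1 and 2 (adjusted p = 0.152, 0.0897 and 0.0689) or without replicate 2_2 or 3 of the libraries labelled Cre (0.0958 and 0.0569, limma). The call was also lost with the control pair 1 and 1_1 averaged (adjusted p = 0.108) or with both replicate pairs averaged (0.0807, limma). Of 8 tested genes of the remaining SREBP machinery, 0 passed, against 9.96% of all genes. At an unadjusted p under 0.05 (limma) there were 0, against 1965 lower and 1813 higher of the 14840 genes tested.

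Sterol uptake, transport and storage was the list with the most calls, 8 of 12 tested genes (66.7%, 2 lower and 6 higher), against 9.96% of all genes. *Scarb1*, the HDL receptor, fell from 796, 628 and 729.5 to 443, 361 and 372, a log2 difference of -0.87 (adjusted p = 0.00384, limma) and *Stard4*, a sterol carrier, fell by 0.56 on the log2 scale (adjusted p = 0.0243). The call of *Stard4* was lost without control replicate 1 or 1_1 or without replicate 2_2 of the libraries labelled Cre (adjusted p = 0.141, 0.0763 and 0.107, limma). It was also lost with the control pair 1 and 1_1 averaged (adjusted p = 0.0885) or with both replicate pairs averaged (0.0789, limma).

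In the other direction, *Lrp1*, a lipoprotein receptor, rose from 229, 275 and 191 to 645, 539.8 and 676 (log2 difference 1.43, adjusted p = 0.000516, limma). *Apoe*, the main apolipoprotein that astrocytes secrete, rose by 1.39 (adjusted p = 0.00502) and *Lipa*, the lysosomal acid lipase, by 1.11 on the log2 scale (adjusted p = 0.00539). The other genes of this list that rose were *Npc1*, *Npc2* and *Soat1*. *Abca1*, the cholesterol exporter and a target of LXR, had 41.3, 43.9 and 16 in control and 218, 317 and 231 in the libraries labelled Cre. Its log2 difference of 2.99 (SE 0.34, adjusted p = 0.000495, limma) was the 1 call among 6 tested genes of LXR and efflux (16.7%, against 9.96% of all genes).

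Of 21 tested genes of the remaining fatty acid synthesis and activation list, 3 passed (14.3%, against 9.96% of all genes), all lower. *Thrsp*, a lipogenic cofactor, fell from 681, 698 and 755 to 204, 142 and 245 (log2 difference -1.88, adjusted p = 0.000187, limma). *Acss2*, which activates acetate, fell by 1.01 (adjusted p = 0.0172) and *Elovl1*, an elongase, by 0.49 on the log2 scale (adjusted p = 0.0434). Without any of control replicates 1, 1_1 and 2 or replicate 2_2 of the libraries labelled Cre, the call of *Acss2* was lost (adjusted p = 0.0526, 0.0652, 0.0949 and 0.0804, limma), as was that of *Elovl1* (0.148, 0.109, 0.147 and 0.151), which also missed without their replicate 2 (0.0545). With the control pair 1 and 1_1 averaged, the calls of *Acss2* (adjusted p = 0.0554) and *Elovl1* (0.1205, limma) were lost. *Elovl1* also missed with replicates 2 and 2_2 of the libraries labelled Cre averaged (adjusted p = 0.082) or both replicate pairs averaged (0.158, limma). Fatty acid oxidation had 2 of 17 tested genes called (11.8%, near the 9.96% of all genes), *Cpt1a*, the gate to the mitochondrion, with 0.78 (adjusted p = 0.00529) and *Acadl*, a dehydrogenase, with 0.54 (adjusted p = 0.0492), both higher. *Acadl* lost its call without any of control replicates 1, 1_1 and 2 (adjusted p = 0.222, 0.0772 and 0.135) or without replicate 2_2 or 3 of the libraries labelled Cre (0.191 and 0.0851, limma). It also lost the call with the control pair 1 and 1_1 averaged (adjusted p = 0.121), both replicate pairs averaged (0.0601) or no filter (0.0693, limma). Of 16 tested triglyceride, phospholipid and lipid droplet genes, 2 passed (12.5%, against 9.96%). *Mgll*, the monoglyceride lipase, rose by 1.58 (adjusted p = 0.017) and *Lpin1*, a phosphatidate phosphatase, by 0.66 (adjusted p = 0.00406, limma). The call of *Mgll* was lost without replicate 2_2 of the libraries labelled Cre (adjusted p = 0.087, limma).

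**Figure D5:**
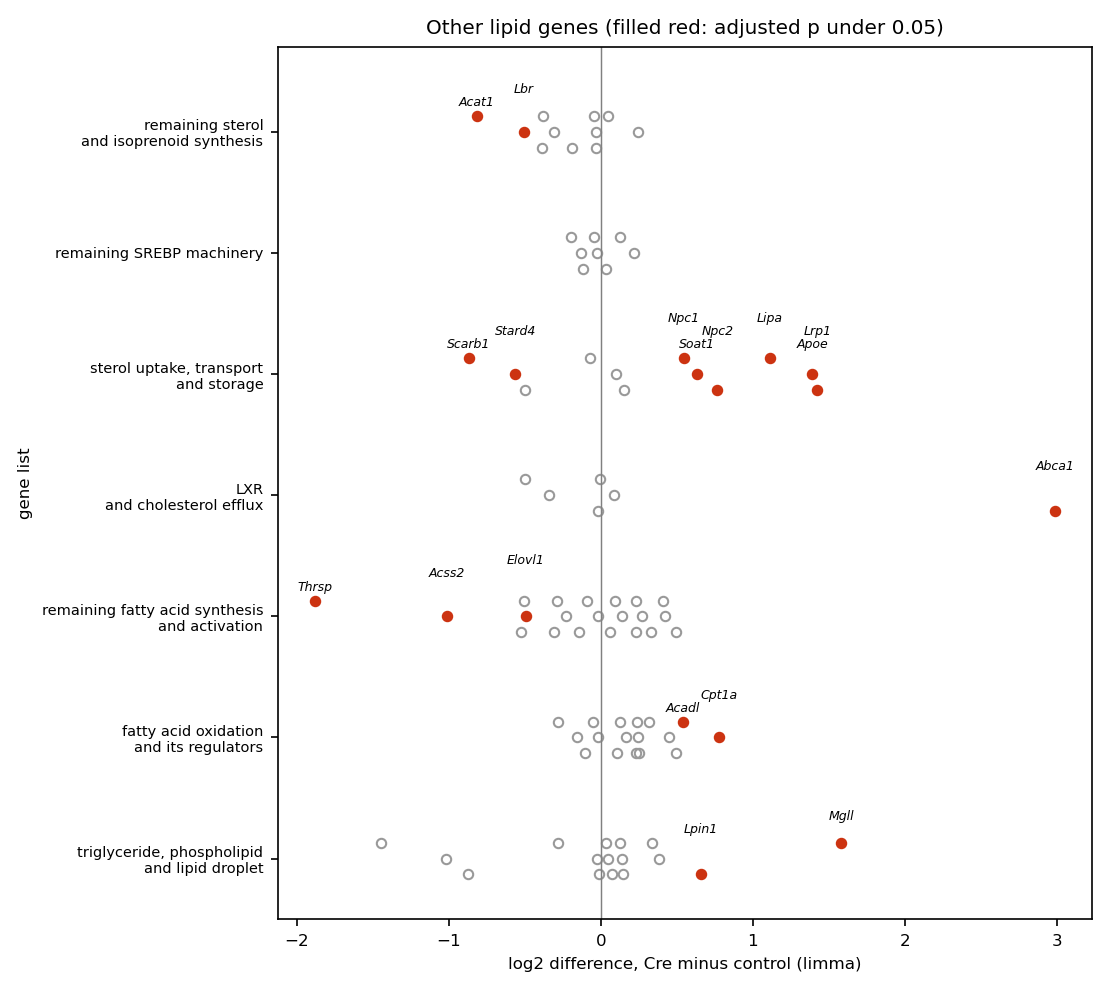
Log2 difference between the libraries labelled Cre and control (x axis, limma, n = 3 per group) for 91 tested genes of 7 further lipid gene lists (rows). Filled red points passed an adjusted p of 0.05, 7 lower and 11 higher, with *Thrsp* at -1.88 and *Abca1* at 2.99 farthest from 0.

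Other gene groups moved with these values. A list of 12 replication helicase and S phase genes summed to 14157 to 16234 normalized counts in control and 9376 to 9820 in the libraries labelled Cre. Of these, 8 of 12 passed as lower (66.7%), with a median log2 difference of -0.66. Over all genes tested, 5.22% passed as lower and 4.74% as higher. The 11 astrocyte markers summed to 14853 to 16588 in control and 19156 to 19608 in the libraries labelled Cre (of 8 tested, 3 passed, all higher, and 2 had negative log2 differences, down to -1.65; *Gjb6* at 3 reads or fewer in every library). The 14 markers of the oligodendrocyte lineage summed to 12912 to 14839 and 17836 to 20139 (of 7 tested, 3 passed, all higher, with *Mobp* at 3 reads or fewer). The 12 neuron markers summed to 17797 to 18898 and 15361 to 17368 (of 9 tested, 1 passed as higher and 1 as lower, with *Stmn2* and *Slc17a7* at 3 reads or fewer). Their part in the values of the lipid genes was not tested.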

How the data were processed

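RNA-seq was analysed for 6 libraries of neural stem cells, 3 per group, with groups and replicate numbers from the labels. The authors prepared the libraries with a kit that does not keep strand. The submitters' processing notes name STAR 2.7, DESeq2 and mm10, while the methods of the study name TopHat with mm9 and mm10. The read counter, strand setting and annotation version are not given in the sources used here. The deposited values are normalized counts, a signal for which the authors scaled the reads of each library by its own size factor. The deposited log2 fold changes with their errors, test statistics (a score) and p-values of the authors' own comparison, and the authors' mean column and other annotation columns, were not used. The expression values carry no coordinates.

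Of 53379 genes, 873 have no name and 1 with a blank value was left out. Dividing by the value of 1 read gave whole numbers for 100% of values, to within 6.8e-05. Libraries of 1 group differed beyond sampling noise (chi-square per degree of freedom 6.38 to 40). That does not show whether they came from separate cultures, since repeat preparations of 1 culture can also differ. All 6 were kept apart, with averaged replicate pairs as alternatives. Depth was 7510615 to 14828100 reads, and intervals are limma's 95% intervals.

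The test was limma 3.58.1 (lmFit, eBayes with trend, R 4.3.3) on log2(normalized count + 1), for 14840 genes with a mean of at least 10, with Benjamini-Hochberg adjustment over all of them and a threshold of 0.05. Fold changes of low genes are understated on this scale. Alternatives were pseudocounts of 0.5 and 5, a mean of at least 50 or no filter, TMM and total scaling, both count tests (edgeR 4.0.16, quasi-likelihood, and DESeq2 1.42.0) run on whole reads, averaged replicate pairs, each library left out, and, for the medians of the fatty acid branch, *Acly* or the desaturases left out. The fits were tested on simulated data. The 30 genes, the branches and the other lists were chosen with earlier results of these data known. All 30 genes are named, and from each other list the genes past the threshold, at most 3 per direction by size. Genes named outside this rule, *Npc1*, *Npc2* and *Soat1*, were picked with their values in view. Some genes of the other lists are not reported here. RefSeq gave promoter windows and gene positions on GRCm38.p6, and GENCODE M1 gave exon lengths (29 of 30 genes matched) and overlaps. Figures were drawn with matplotlib 3.10.9.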

Additional observations from a re-analysis of the deposited data

How the results depend on the processing

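The count of genes called over all genes, 1478, became 660 with control replicates 1 and 1_1 averaged, 885 with both pairs averaged and 558 to 2396 with 1 library left out. The count of sterol genes called lower, 2, became 1 with the control pair averaged, 1 with both pairs averaged and 0 to 3 with 1 library left out. That of fatty acid genes, 0, became 1 with DESeq2 and 0 to 1 with 1 library left out, and so did that of regulators (0 to 1) and of genes of the list called higher (0 to 1) with 1 library left out. The 7 other lipid genes called lower became 3 with the control pair averaged and 3 to 10 with 1 library left out, and the 11 called higher became 7 to 12. The medians of the sterol genes, the fatty acid genes and the regulators stayed negative in every alternative run. With 1 library left out they ran from -0.28 to -0.17 for sterol genes, from -0.30 to -0.16 for fatty acid genes and from -0.41 to -0.23 for regulators.

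Of the values of single genes of the list under the alternatives, 475 kept their direction and call, 9 gained a call, 10 lost one and 15 changed direction. *Fdps* was 0.0824 with replicates 2 and 2_2 of the libraries labelled Cre averaged and 0.0162 with both pairs averaged, and *Sc5d* was 0.0295 with the control pair averaged and 0.0113 with both averaged. With 1 library left out, *Pmvk* ranged from -0.0949 to 0.32, *Mvd* from -0.75 to 0.0539, *Fdps* from -0.23 to 0.15, *Tm7sf2* from -0.0639 to 0.21, *Hsd17b7* from -0.46 to 0.0314, *Sc5d* from -0.0879 to 0.0416 and *Srebf1* from -0.53 to 0.14 on the log2 scale. The cause was not tested. No paired analysis was possible because the groups share only the replicate number 2. *Idi1* had the fewest reads of the 30 genes, 14 to 21 per library, and the widest 95% interval.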
